A study of Mus musculus with 12 samples.

Results

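Cpt1a, Slc25a20 and Acads are genes of mitochondrial fatty acid oxidation in the liver, and Ppara is a nuclear receptor that regulates this route. These 4 genes are described here through the m6A-immunoprecipitated RNA of mouse livers with and without cholestatic fibrosis. They were chosen by name, with earlier results of the same comparison of bile duct ligation (BDL) with control known, so their differences are a description: they took part in the fits over all genes and peaks, but no call of theirs is read as a test. They account for 4 of 5674 annotated genes and 5 of 7460 distinct peaks, and all 5 peaks were annotated to 1 gene each and passed the filter on low counts. The libraries came from livers of male C57BL/6 mice aged 12 weeks. The BDL group had hepatic fibrosis after surgical ligation of the bile duct, and the control group were normal mice. RNA fragments were pulled down with an antibody against m6A (N6-methyladenosine, a methylated form of adenosine found within RNA), and 3 such IP libraries per group were compared. No source used here gives the time after surgery. The input libraries were not used, and a difference in IP reads cannot be assigned to transcript amount or to methylation. In whole liver, fewer hepatocytes and less RNA per hepatocyte cannot be told apart either.

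Hepatocytes burn fatty acids in mitochondria. Long-chain acyl groups are loaded onto carnitine by Cpt1a at the outer membrane, the step that malonyl-CoA inhibits, and are exchanged across the inner membrane by the carnitine-acylcarnitine carrier Slc25a20. Inside, acyl-CoA dehydrogenases start each round of the spiral, with Acads serving the short chains. Ppara is the lipid-activated nuclear receptor that, as a dimer with Rxra, switches on genes of this route in fasting liver.

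The peaks did not lie in the same part of each gene. Coordinates count from 1 in the build of the deposited table, which it does not name. The Ppara peak (ENSMUSG00000022383, chromosome 15, 85801182 to 85801356, plus strand) was 175 bases wide and centred 1550 bases before the annotated 3′ end. Both peaks of Cpt1a (ENSMUSG00000024900, chromosome 19, plus strand) lay in the same end of the gene. The upstream one spanned 3383811 to 3383985 and the downstream one 3384961 to 3385110, with centres 1835 and 697.5 bases before the 3′ end. The Acads peak (ENSMUSG00000029545, chromosome 5, 115110299 to 115110373, minus strand) was 75 bases wide and ended at the very last annotated base of the gene, with its centre 37 bases from the 3′ end. These 4 peaks were centred beyond 97% of the gene span, as the map of peak places shows, and 35.5% of the 6474 peaks of 1 gene lay in the last 5% of their gene. The Slc25a20 peak (ENSMUSG00000032602, chromosome 9, 108662148 to 108662222, plus strand) was also 75 bases wide but sat at the opposite end, 87 bases from the annotated 5′ start. Of the peaks of 1 gene, 1.78% were centred within 100 bases of that start. Whether a peak lay in an exon, an intron or an untranslated region was not examined.

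**Figure D1:**
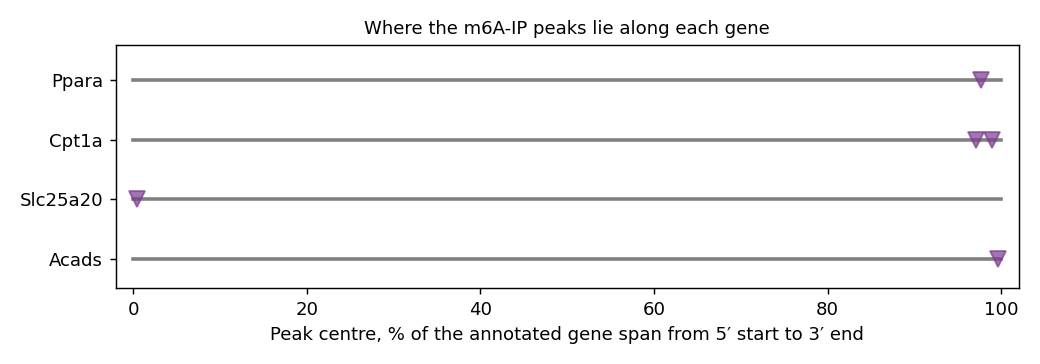
Each line is 1 gene drawn from its annotated 5′ start (0%) to its 3′ end (100%), and each triangle is the centre of 1 m6A-IP peak. The peaks of Ppara, Cpt1a and Acads sit at 97.06% to 99.58% of the span, and that of Slc25a20 at 0.386%.

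The Slc25a20 peak is the one that reaches into a promoter window. RefSeq windows of 300 bases, from 250 before to 50 after each gene start (GRCm38.p6), were matched by symbol for all 4 genes. Gene positions in the deposited table overlapped those of the same symbol in the RefSeq table of that build for 5269 of 5270 matched genes, and 2722 shared a gene end to the base, so the placing of the peak on the window assumes that build. The windows of Slc25a20 (chr9:108661886-108662185, plus strand) and Cpt1a (chr19:3323051-3323350, plus strand) are shown 5′ to 3′, the first because the peak covers its last 38 bases, in capitals, and the second because it held the most motif matches, in capitals.
Slc25a20: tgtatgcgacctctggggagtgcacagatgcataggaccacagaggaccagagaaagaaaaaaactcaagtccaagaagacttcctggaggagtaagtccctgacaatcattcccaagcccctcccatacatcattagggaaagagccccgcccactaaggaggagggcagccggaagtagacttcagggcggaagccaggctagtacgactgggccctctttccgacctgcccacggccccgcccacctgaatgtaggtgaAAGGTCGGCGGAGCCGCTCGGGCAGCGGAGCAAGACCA
Cpt1a: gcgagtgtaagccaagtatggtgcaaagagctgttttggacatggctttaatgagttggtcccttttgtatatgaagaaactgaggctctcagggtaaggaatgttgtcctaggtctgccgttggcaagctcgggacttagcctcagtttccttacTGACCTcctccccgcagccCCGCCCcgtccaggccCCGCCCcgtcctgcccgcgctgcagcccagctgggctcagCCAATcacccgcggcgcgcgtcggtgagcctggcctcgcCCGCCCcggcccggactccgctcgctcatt

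Those 38 bases lie after the RefSeq gene start of Slc25a20 (108662136) and not upstream of it. The deposited table places the start of this gene at 108662098. Within the 38 bases the word AGACC occurred once, at 108662180 to 108662184. It is 1 of the 9 words of the m6A consensus searched on the transcribed strand, those with GAC in the middle, any base but C before it and any base but G after it, and 29.4% of all 32851 windows held at least 1 of them in the same last 38 bases. Promoter motifs were counted on both strands. The PPAR response element AGGTCANAGGTCA, a direct repeat that Ppara and Rxra bind, had no exact match in any of the 4 windows and was present in 0.0396% of all windows. Its single repeat AGGTCA occurred once, in Cpt1a on the minus strand, against 16.3% of all windows. The GC box GGGCGG was found in all 4 windows, with 2 matches in Ppara, 3 in Cpt1a, 3 in Slc25a20 and 1 in Acads, against 35.7% of windows with at least 1. The box CCAAT occurred in Cpt1a alone of the 4 (37.4% of all windows) and TATAAA in none of them (13.6%). These matches describe letters in a window and do not show binding.

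The libraries held 15254737 to 35691860 reads in peaks, with more in each BDL library than in any control library. Levels are therefore given as CPM, the reads of a peak scaled by the library's TMM-normalised reads in peaks. Where reads were summed per gene, the scaling used the reads in peaks of 1 gene alone (12383593 to 31059233), so that a gene's CPM is higher than its peaks' CPM together. Over all genes with reads summed per gene, 635 of 4306 passed edgeR's quasi-likelihood test (Benjamini-Hochberg adjusted p under 0.05), 14.7%, of which 282 were lower (6.55%) and 353 higher (8.2%) in BDL. Over peaks, 649 of 7083 passed (9.16%), 322 of them lower (4.55%). Fewer features passed when some single libraries were left out: 375, 259 and 223 genes passed without BDL replicate 1, 2 and 3, and 338, 155, 170 and 362 peaks without these and without control replicate 2. The labels number the samples without saying that each is a separate mouse, so these p-values measure the spread between samples. Replicates of a group differed from each other by more than sampling noise.

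Ppara, the receptor, was lower in every BDL library. Its peak held 5015, 6137 and 6660 reads in control and 2616, 5076 and 2926 in BDL. After scaling, the control libraries stood at 365, 369.9 and 375 CPM, and the BDL libraries at 117, 127 and 94.4 CPM. All BDL libraries lay below all control libraries, and the control values were within a few percent of each other. The mean level was 370.02 ± 5.01 CPM in control and 113 ± 16.9 in BDL (SD, n = 3 each), a log2 difference of -1.71 (SE 0.18), or a control level 3.27-fold that of BDL. BDL below control without overlap was seen for 16.7% of all tested peaks.

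Cpt1a, the gate of the carnitine shuttle, was lower in BDL at both of its peaks, but by unequal amounts. Its upstream peak had 3186, 3556 and 4170 reads in control and 4160, 5714 and 3483 in BDL. Scaled for depth, this peak stood at 232, 214 and 235 CPM in control and at 187, 143 and 112 in BDL. The raw reads of the groups overlapped and the scaled values did not. The downstream peak held 2631, 3107 and 2022 reads in the BDL libraries, while the control libraries held 3439, 2888 and 3484. On the CPM scale control stood at 250.3, 174 and 196 and BDL at 118, 77.9 and 65.3. Again no BDL library reached the lowest control library. The log2 difference was -0.62 (SE 0.22) at the upstream peak and -1.25 (SE 0.27) at the downstream peak. Summed over both, and on the per-gene scale of CPM, Cpt1a went from 516 ± 59.9 CPM in control to 275 ± 75.9 in BDL (n = 3 each), a log2 difference of -0.91 (SE 0.22). BDL replicate 1 was the highest BDL library at both peaks.

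**Figure D2:**
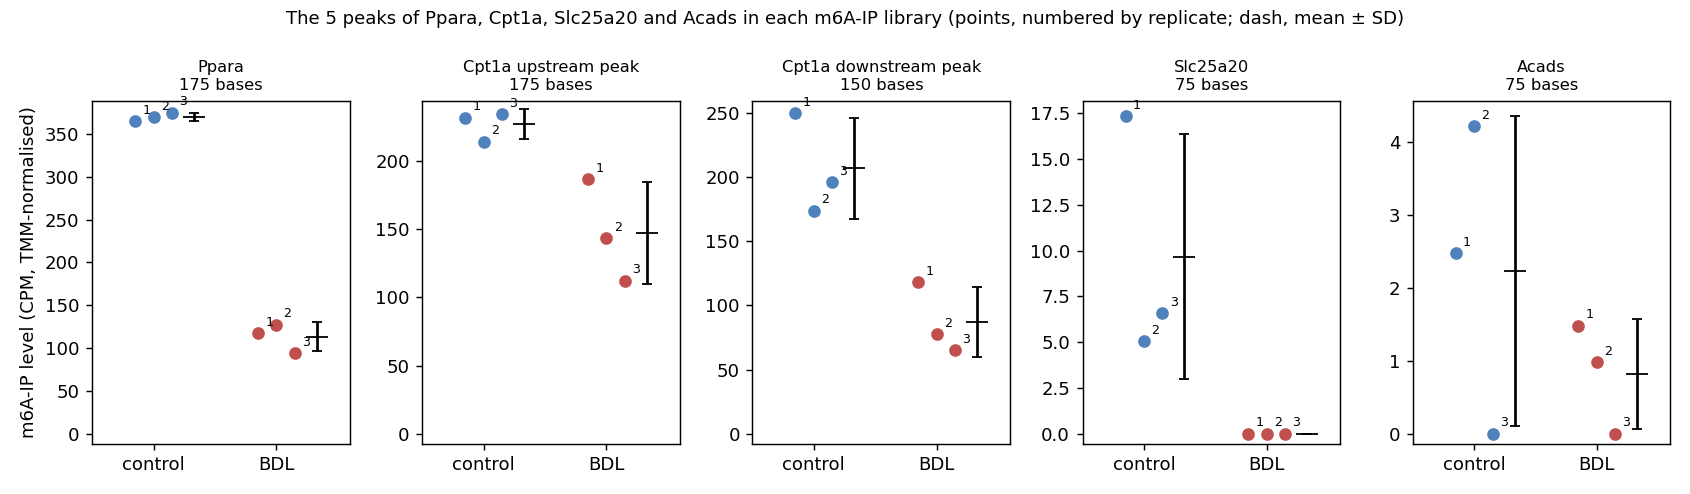
Each panel is 1 peak, with the TMM-normalised CPM of the 3 control and 3 BDL IP libraries as points numbered by replicate, and the mean ± SD as a dash with bars; the linear axes differ between panels. BDL lies wholly below control for Ppara, for both Cpt1a peaks and for Slc25a20 (no reads in BDL), while Acads overlaps, with replicate 3 of both groups at 0.

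The balance between the Cpt1a peaks therefore differed. The upstream peak took 48.1%, 55.2% and 54.5% of the gene's reads in the control libraries and 61.3%, 64.8% and 63.3% in the BDL libraries. The lowest BDL share, in replicate 1, had a 95% exact binomial interval of 60.1% to 62.4%, and the highest control share, in replicate 2, one of 54.0% to 56.4%, which cover counting error only. Group means were 52.6 ± 3.91% and 63.1 ± 1.77% (SD, n = 3 each), and the groups did not overlap. This difference comes from the contrast on which Cpt1a was chosen and was not tested. The gap of 0.63 on the log2 scale between its peaks was an ordinary one, since the median over 897 genes with 2 tested peaks was also 0.63 and 49.7% of those genes had a smaller gap.

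**Figure D3:**
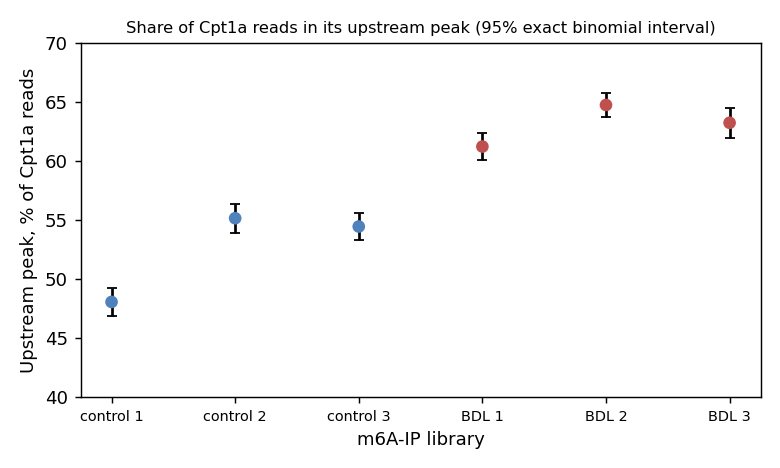
Points are the percent of Cpt1a reads that fell in its upstream peak in each IP library, and bars are 95% exact binomial intervals; the axis runs from 40% to 70%. The control libraries lie between 48.1% and 55.2% and the BDL libraries between 61.3% and 64.8%.

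Slc25a20, the carrier of the inner membrane, was not seen in BDL. Its narrow 5′ peak had 238, 84 and 117 reads in control and none in any of the 3 BDL libraries. Control levels were 17.3, 5.06 and 6.59 CPM, so replicate 1 alone stood well above the others. With the floor of 3 reads put in each BDL library, the control level was at least 96.1-fold higher, summed per gene, and at least 57.3-fold without control replicate 1. With all libraries thinned to the smallest, the bound was 56.9-fold. This bound holds only where absent reads are counting zeros. Peaks of 75 bases or less, which made up 1254 of the 7460, often lacked reads, and 59.9% of them had no reads in at least 1 library against 12.8% of wider peaks. The pattern of Slc25a20, no reads in any BDL library and reads in every control library, was shared by 13 narrow peaks (1.04%) and 10 wider ones (0.161%). The reverse, no reads in any control library and reads in every BDL library, was more frequent, with 30 narrow peaks (2.39%) and 74 wider ones (1.19%). The part of peak width in the value of Slc25a20 was not tested.

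Acads, the short-chain dehydrogenase, had few reads and groups that overlapped. Its peak held 34, 70 and 0 reads in control and 33, 39 and 0 in BDL, or 2.48, 4.22 and 0 CPM against 1.48, 0.978 and 0. Replicate 3 of each group held no reads. A library without reads allows up to 3 reads, which on this scale was 0.0968 CPM in BDL replicate 3 and 0.169 CPM in control replicate 3. The log2 difference of -1.47, summed per gene, had an SE of 2.22, and without control replicate 2 it was -0.62. This pattern of zeros, in replicate 3 of both groups alone, occurred in 6 of the 1254 narrow peaks and in 0 of 6206 wider ones. The data thus did not show Acads to move with the other 3 genes.

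Per 100 bases of peak, the order of the levels in control was Ppara (211 ± 2.86 CPM per 100 bases), the downstream peak of Cpt1a (138 ± 26.2), its upstream peak (130 ± 6.34), Slc25a20 (12.9 ± 8.91) and Acads (2.98 ± 2.83; SD, n = 3 for each). The Cpt1a peaks did not differ beyond their spread. Their control levels and that of Ppara exceeded those of 92.21% to 95.36% of all peaks, while Slc25a20 lay above 44.45% and Acads above 15.24%. In BDL the upstream peak of Cpt1a came first (84.3 ± 21.3), then Ppara (64.6 ± 9.65) and the downstream peak (58.1 ± 18.4), and these overlapped within their SD. Library by library, the upstream Cpt1a peak stood above the downstream one in BDL (107, 81.9 and 64.2 against 78.7, 52.0 and 43.5 CPM per 100 bases). Acads followed at 1.09 ± 1.004 (n = 3 each).

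The other genes of the route were sparsely covered. Of 39 listed genes of the carnitine shuttle, the dehydrogenases, the later steps, electron transfer and fatty acid activation, 8 had a peak of their own and all 8 were tested. Of these, 2 were called lower and none higher, where 6.55% of all tested genes were called lower. Both, Cpt1a and Slc25a20, were chosen on this contrast, so nothing is read from this count. Neither was called without BDL replicate 2 or without BDL replicate 3, and 1 of them without control replicate 1 or without control replicate 2. The median log2 value was -0.91, against 0.03 over all tested genes. Without Cpt1a, Slc25a20 and Acads, 0 of 5 passed by edgeR or by DESeq2 (0 each), although 1 had an unadjusted p under 0.05, and the median was -0.26. That one was Acsm5, a medium-chain acyl-CoA synthetase (log2 -0.93, SE 0.38, edgeR adjusted p = 0.145).

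The remaining 4 had values on both sides of 0. Acadm, the medium-chain dehydrogenase, held 883 ± 173 CPM in control and 739 ± 127 in BDL (n = 3 each). Its log2 value of -0.26 (SE 0.20) became 0.02 when libraries were scaled by their totals alone. The isomerase Eci1 had a log2 value of -0.91 (SE 0.68), the hydroxyacyl-CoA dehydrogenase Hadh of 1.78 (SE 1.62) and the synthetase Acsl5 of 0.07 (SE 1.605). No gene of electron transfer had a peak. A further 5 listed genes had only peaks shared with a neighbouring gene (Acsl3, Acsm1, Acsm3, Echs1 and Acad11), and none of these 7 peaks was called by edgeR (0 at an unadjusted p under 0.05) or by DESeq2 (0), with edgeR adjusted p from 0.221 to 0.979. In the deposited annotation, 13 genes of fatty acid degradation other than Cpt1a and Acads were tested. None of them was called by edgeR, although 3 had an unadjusted p under 0.05 and DESeq2 called 2.

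Of 7 listed genes of fatty acid uptake and binding, 3 were tested and 2 fell, where 6.55% of all tested genes were called lower. The count was 1 without BDL replicate 1, BDL replicate 2, control replicate 1 or control replicate 2. Slc27a2, a very long-chain acyl-CoA synthetase and fatty acid transporter, went from 3482 ± 327 to 1112 ± 233 CPM (n = 3 each), and fell by 1.65 on the log2 scale (SE 0.19, edgeR adjusted p = 9.74e-04). It passed in all 6 fits that left out 1 library. Fabp1, the liver fatty acid binding protein, had 1099, 1103 and 661 reads in control and 0, 1 and 67 in BDL, in a single peak of 75 bases or less. It passed (log2 -6.39, SE 1.55, edgeR adjusted p = 0.0291) but the call was lost when any of BDL replicates 1 and 2 and control replicates 1 and 2 was left out, where adjusted p ranged up to 0.0665. Without BDL replicate 3, which held nearly all of its BDL reads, 1 BDL read was left. With the replicate block the edgeR adjusted p of Fabp1 was 0.0547. The transporter Slc27a4 had a log2 value of -1.27 (SE 1.25).

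None of the 3 tested genes of malonyl-CoA control, of 10 listed, was called by edgeR, although 2 had an unadjusted p under 0.05 and 2 were called lower by DESeq2. These were the fatty acid synthase Fasn (log2 -1.17, SE 0.35, edgeR adjusted p = 0.0578) and the malonyl-CoA decarboxylase Mlycd (-0.47, SE 0.16, 0.088). Prkab1 of this list had a peak shared with an unnamed annotation, called higher (log2 1.30, SE 0.23, edgeR adjusted p = 0.0155). The shared peak of Prkab2 was not called (edgeR adjusted p = 0.721). Over all tested peaks 9.16% were called. Of 3 tested genes of pyruvate dehydrogenase and the citric acid cycle, out of 20 listed, 1 fell, against 6.55% of all tested genes. It was Pdhb, a subunit of pyruvate dehydrogenase (log2 -1.26, SE 0.33, edgeR adjusted p = 0.0354), which passed in 1 of the 6 fits that left out 1 library, with adjusted p up to 0.118, and not under scaling by library totals alone (0.0856). Dld and Sdhb had log2 values of -0.38 (SE 1.05) and 0.19 (SE 1.07).

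Among the partners of Ppara, 1 gene was called, a share near that over all tested genes, so nothing is read from this count. Ppara itself aside, 10 receptors, coactivators and corepressors were tested, and Nrip1, a corepressor of nuclear receptors, was the 1 called by edgeR (and by DESeq2), where 8.2% of all tested genes were called higher. The median log2 value of these 10 was -0.02. Nrip1 went from 358 ± 0.817 to 583 ± 74.8 CPM (n = 3 each), a rise of 0.70 on the log2 scale (SE 0.16, edgeR adjusted p = 0.0208). The call was lost when BDL replicate 1, BDL replicate 2 or control replicate 2 was left out, with adjusted p up to 0.0793. With the replicate block its edgeR adjusted p was 0.0504. Rxra, named after its values were seen because it is the dimer partner of Ppara, held 3524 ± 402 CPM in control and 2926 ± 674 in BDL (n = 3 each). Its log2 value of -0.27 (SE 0.19) did not pass and became 0.00572 with scaling by totals alone. The coactivator genes Med1 (log2 -1.16, SE 0.56) and Ppargc1b (3.36, SE 1.995) did not pass either. Whether Ppara and Rxra differ from each other in their change was not tested.

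Of 33 listed liver target genes of Ppara, which include Cpt1a, Slc25a20, Acads, Acadm and Fabp1, 19 were tested. Without the 3 of them that were chosen on this contrast, 3 of 16 were called lower and none higher, against 6.55% and 8.2% of all tested genes, and the median log2 value was -0.73. Without control replicate 1 or control replicate 2 the count was 2. Besides Fabp1, the calls included Pex11a, a peroxisome division factor. Its control level was 676 ± 168 CPM against 242 ± 53.3 in BDL (n = 3 each), and it fell by 1.48 on the log2 scale (SE 0.24, edgeR adjusted p = 0.00575). It passed in all 6 fits without 1 library. The monoglyceride lipase Mgll (log2 -4.68, SE 1.37, edgeR adjusted p = 0.0551) and the omega-hydroxylase Cyp4a14 (-2.16, SE 0.69, 0.0763) did not pass edgeR. DESeq2 called both lower, with adjusted p of 3.03e-04 and 0.00358. The listed target G0s2 had only peaks shared with Lamb3. The one of 50 bases was called lower (log2 -2.28, SE 0.40, edgeR adjusted p = 0.0158), and the one of 75 bases was not tested. In the deposited annotation of PPAR signalling, 26 genes were tested. Ppara and Cpt1a aside, 4 of 24 were called lower, among them Apoa2, Fabp1 and Slc27a2, and 2 higher, the lectin-like receptor Olr1 and the desaturase Scd2. The shares over all tested genes were 6.55% and 8.2%.

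**Figure D4:**
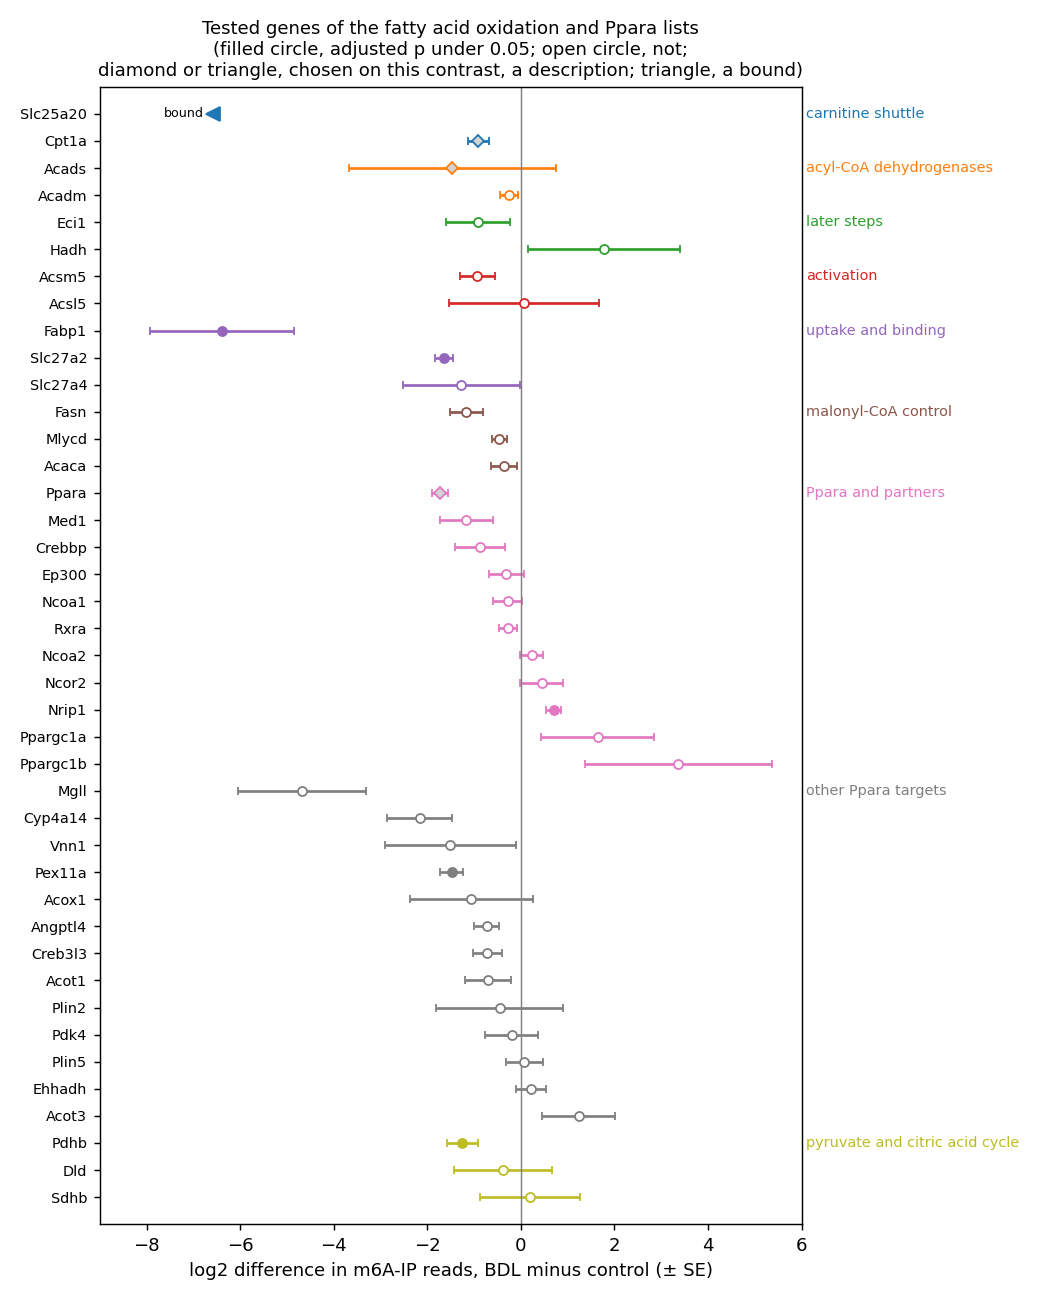
Points are log2 differences in m6A-IP reads summed per gene, BDL minus control, with SE bars, for tested genes of the lists described; filled circles passed edgeR over all genes, open circles did not. Diamonds and the triangle are Ppara, Cpt1a, Acads and Slc25a20, which were chosen on this contrast and are shown as a description, the triangle being the bound for Slc25a20. Filled circles to the left of 0 are Fabp1, Slc27a2, Pex11a and Pdhb, and the one to the right is Nrip1.

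Markers of cell types moved between the same groups. Of 18 hepatocyte markers, 10 were tested and 4 were called lower (Apob, Cebpa, Serpinc1 and Ttr) and none higher, against 6.55% and 8.2% of all tested genes. The count was 1 without BDL replicate 2, BDL replicate 3 or control replicate 2, and 2 without control replicate 1. The list had a median log2 value of -0.28 and a summed level of 13659 to 18483 CPM in BDL against 21990 to 26885 in control. Apob (mean 6960 CPM in BDL, 10446 in control) and Ttr (2291 and 5872) held most of that sum. Of the 10 tested, 9 had log2 values below 0, and G6pc was at 0.11 (SE 0.51). Ppara stood lower than that list's median, which is a description because Ppara was chosen on this contrast. The lowest member of the list was Cebpa, at -1.50. Of 16 cholangiocyte markers 3 of 7 tested rose, with a summed level of 2189 to 3453 CPM in BDL against 563 to 697 in control. The count was 3 or 4 in each fit without 1 library. Of 16 macrophage and monocyte markers 4 of 6 rose (5594 to 6788 against 1771 to 2993 CPM), but 2 without BDL replicate 2 or BDL replicate 3. Clec4f of that list went the other way and did not pass (log2 -0.60, SE 0.24, edgeR adjusted p = 0.147). Most of the summed level was Cd5l (mean 3277 CPM in BDL, 1759 in control) and Cd14 (2618 and 291). Of 16 stellate cell and myofibroblast markers 1 of 2 rose (375 to 576 against 134 to 249 CPM), and 0 without BDL replicate 2 or BDL replicate 3. Of 12 endothelial markers 0 of 6 were called by edgeR and 0 by DESeq2, although 2 had an unadjusted p under 0.05 (550.4 to 854 against 625 to 780.1 CPM), and edgeR called 1 without control replicate 1. No marker with a peak of its own was at 0 in a whole group. Defining markers without such a peak included Cyp2e1 for hepatocytes, Krt19 for cholangiocytes, Adgre1 for macrophages and Col1a1 for myofibroblasts. The part of cell composition in the lower values of Ppara, Cpt1a and Slc25a20 was not tested.

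Genes were also ranked by how closely their levels over the 6 libraries followed each of the 4, as the root mean square difference of log2 CPM after centring each gene on its own mean. This measure uses the contrast on which the genes were chosen, so it is a description. Closest to Ppara were Cebpa, a hepatocyte transcription factor, at 0.139, Dgat2, an enzyme of triglyceride synthesis, at 0.146, and Mbl1, a mannose-binding lectin, at 0.148. Closest to Cpt1a were the aminopeptidase gene Erap1 (0.0976), Khdc4 (0.107) and Zadh2 (0.110). The neighbours of Slc25a20 lay farther off, St6galnac3 at 0.295, Afm at 0.419 and Fam83c at 0.493, and all 3 held no reads in BDL. Acads had no close match, with Mill2 at 0.583, Hsp90b1 at 1.02 and Fv1 at 1.09. Mill2 also held no reads in replicate 3 of both groups.

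**Figure D5:**
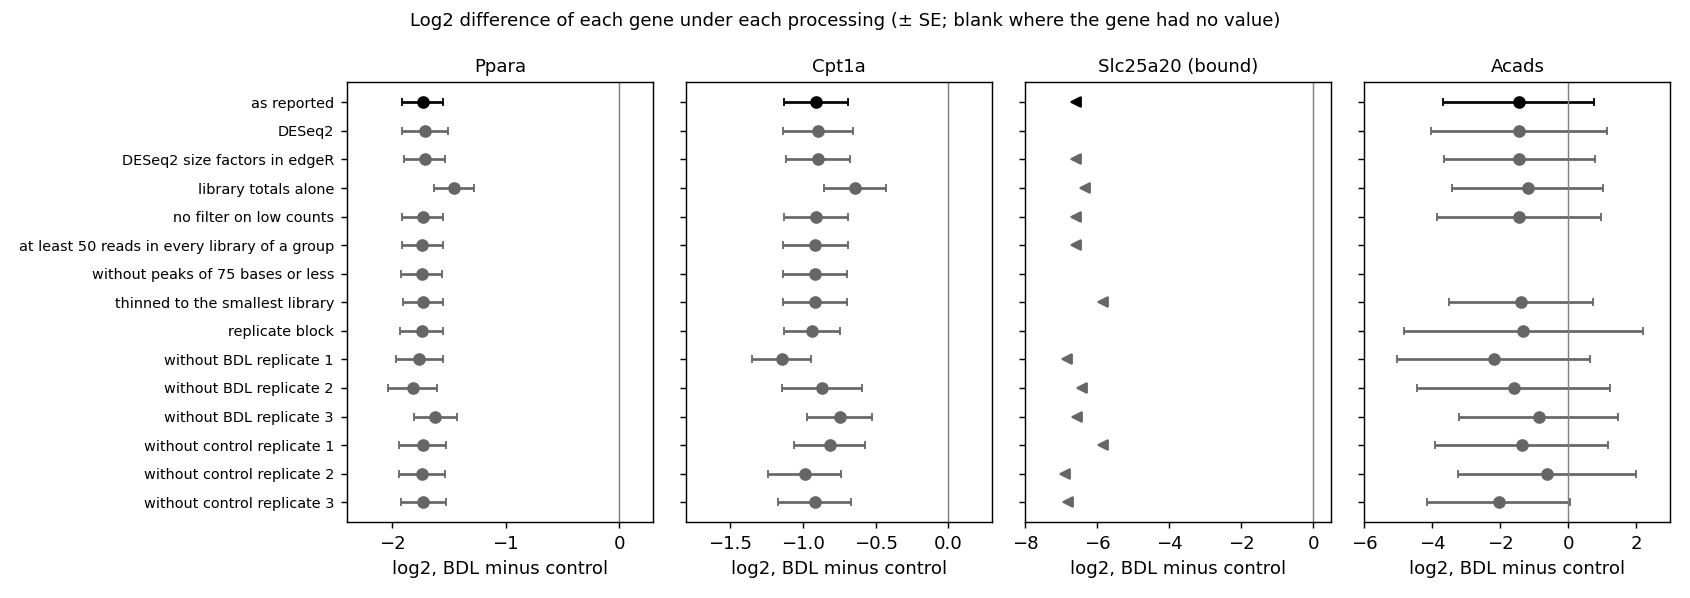
Points are the log2 difference of each gene, BDL minus control, with SE bars where fitted, as reported and under each other processing; triangles for Slc25a20 are bounds, and a blank means that no value could be had. Values for Ppara run from -1.82 to -1.46 and for Cpt1a from -1.14 to -0.64, while the bars of Acads reach 0 in each processing shown.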

How the data were processed

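Liver m6A-IP libraries, 3 from BDL and 3 from control mice, were compared. Per the file headers, the deposited values are raw read counts in merged peaks. Its RPM columns, a score computed by the authors per the file headers, were not used. HISAT2, Bowtie2 2.2.8, fastp and bcl2fastq 2.17 are named in the submitters' processing notes. Peak caller, counter, strand and build stay unnamed there and in the labels.

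The 8649 lines hold 7460 distinct peaks. Gene values are sums over the 6474 peaks that carry 1 gene only. Starts were read as counting from 0, since 130 lines lie 1 base ahead of their gene's first base and 1 lies on it. edgeR 4.0.16 (filterByExpr, TMM, robust quasi-likelihood, Benjamini-Hochberg over all features, threshold 0.05) was used with limma 3.58.1, DESeq2 1.42.0 and R 4.3.3. SE is the log2 difference over the square root of F. On simulated counts of 4297 genes, 61.6% of genes changed by 2 and 65.7% of those changed by 4 on the log2 scale were recovered, and 4.55% of the calls were unchanged genes.

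Intervals and floors (3 reads per library) cover counting error only. Members and lists were chosen with earlier results of these data known. Named list genes were all those called plus the 2 others with the smallest p per list, with some left out of the text; like genes were the 3 nearest, without predicted models. Olr1, Scd2, Apoa2, Rxra, genes with shared peaks and the markers named were added after their values were seen.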

Additional observations from a re-analysis of the deposited data

How the results depend on the processing

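The log2 differences of Ppara, Cpt1a, Acads and the bound for Slc25a20 stayed below 0 under each alternative that gave a value (14, 14, 12 and 11). The genes were chosen on this contrast in the same libraries, so these signs are a description and no support. With no reads in BDL, the Slc25a20 bound is below 0 wherever the control level exceeds the floor. The SE of Acads was larger than its log2 difference in each setting that gave a value. Scaling by library totals alone moved the median of all genes by 0.275. Ppara was then at -1.46, and relative to that median it was at -1.76 under both scalings. The Slc25a20 bound was -5.83 on the log2 scale (56.9-fold) with libraries thinned to the smallest. Leaving out 1 library gave -1.82 to -1.62 for Ppara, -1.14 to -0.75 for Cpt1a, -6.90 to -5.84 for Slc25a20 and -2.20 to -0.62 for Acads. Slc25a20 and Acads had no value without peaks of 75 bases or less, Acads none with a minimum of 50 reads, and the bound was not computed with DESeq2 or the block.

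The count of oxidation genes called lower fell from 2 to 1 with an absolute log2 change of at least 1, with library totals alone, without peaks of 75 bases or less and with the replicate block. It was 0 to 2 without 1 library: 0 without BDL replicate 2 or 3, and 1 without control replicate 1 or 2. The 2 genes were Cpt1a and Slc25a20, chosen on this contrast, so nothing is read from this count or its changes. With Cpt1a, Slc25a20 and Acads left out, it was 0 as reported and in each fit without 1 library. DESeq2 called 1169 peaks against 649. Without 1 library 155 to 611 peaks and 223 to 622 genes were called, the lowest without BDL replicate 2 and BDL replicate 3 respectively; peak counts were also lower without BDL replicate 1 (338), BDL replicate 3 (170) and control replicate 2 (362), and genes to 375 without BDL replicate 1 and 259 without BDL replicate 2. Library totals alone called 608 peaks higher and 173 lower, and 530 genes higher and 168 lower. Same-numbered BDL and control samples showed little joint deviation (correlations 0.00915 to 0.0295, against -0.0265 to 0.0186 for differently numbered ones). With 3 libraries per group these values cannot decide whether the numbers pair the samples. The replicate block gave 287 peaks and 415 genes. The cause of these moves was not tested. With libraries thinned to the smallest, Acads was at -1.39 (SE 2.11), against -1.47 (SE 2.22).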
